A study of Mus musculus with 4 samples.

Results

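Monocytes and dendritic cells of the incisor were taken as the cells that carried the leukocyte gene Ptprc and at least 2 of the 6 genes Ccr2, Cd209a, Flt3, Siglech, Clec9a and Ly6c2. They had fewer than 10 UMIs (unique molecular identifiers, which count transcripts) of C1qa, C1qb and C1qc together, at most 20 UMIs of the neutrophil gene S100a8, and none of the B cell gene Cd79a or the T cell gene Cd3e. Of 11310 cells past the quality filters (1000 or more genes detected, mitochondrial UMIs at 10% or less and hemoglobin UMIs at 3% or less), 174 met the rule. Replicates 1 and 2 of WT (WT1 and WT2) gave 32 and 27 of them, and replicates 1 and 2 of Din-KO (KO1 and KO2) gave 58 and 57.

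The cells came from the proximal tissue of the lower incisors of mice at P15, the end of the tooth that holds its stem cells and grows throughout life. WT mice and Din-KO mice gave 2 libraries each. Din-KO mice carry the tm1b allele of Din, the gene 4930453N24Rik, from which a germline Cre has removed exon 2, so the loss is in every cell and not in blood cells alone. The strain, sex and number of mice in a library are not given in the sources used here. UMIs of Y-linked genes, with at most 1 of Xist, were found in 0 of 32 and 0 of 27 WT cells, and in 8 of 58 (13.8%) and 20 of 57 (35.1%) of the Din-KO cells. Xist stood at 701 and 754 CPM (the gene's UMIs scaled to a common total per library) in WT1 and WT2 and at 379 and 350 in KO1 and KO2. Sex and genotype therefore cannot be told apart in sums over all selected cells.

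Monocytes leave the blood through the chemokine receptor Ccr2 and can turn into macrophages or dendritic cells in tissue. Dendritic cells present antigen to T cells on MHC class II, and they fall into type 1 cells (cDC1), which carry Xcr1 and Clec9a and depend on Irf8, type 2 cells (cDC2), which carry lectins such as Cd209a and Mgl2, and plasmacytoid cells (pDC), which carry Siglech and are known for making type I interferon. Interferon in turn induces antiviral genes and MHC class I in most cell types.

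The genes of the rule were not spread evenly over the cells. Ccr2 was detected in 161 of the 174 cells (92.5%), and 93 cells entered through the pair of Ccr2 and Ly6c2, a surface protein of inflammatory monocytes. Cd209a was detected in 41 cells, Flt3, the growth factor receptor of dendritic cell precursors, in 54, Clec9a, a receptor for dead cell debris, in 26 and Siglech in 9. The rule was met with exactly 2 genes by 130 cells, and a further 92 cells with 1 of the 6 genes lay just outside it. The C1q limit left out 18 cells that otherwise met the rule. Near it, 3 of the selected cells had 5 to 9 C1q UMIs and 3 cells outside had 10 to 14. The S100a8 limit left out 30 cells that otherwise met the rule. Near it, 5 selected cells had 11 to 20 UMIs and 5 cells outside had 21 to 30.

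Clustering divided the 174 cells into 8 groups, and it also showed that the label does not hold for all of them. Clusters were named from marker lists, with the leading genes given here as a description. A dendritic type 2-like cluster of 27 cells led with Mgl2, Tnip3, Clec10a and Cd209a. A dendritic type 1-like cluster of 22 cells led with Xcr1 and Clec9a, and a plasmacytoid dendritic-like cluster of 6 cells with Siglech and Ccr9. The monocytes fell into a Chil3-led cluster of 42 cells and an Ace-led cluster of 37 cells. Ace and Pglyrp1 stood in the list of nonclassical monocyte markers and Chil3 in that of classical ones. Both clusters are called by their leading gene here, since 27 of the 37 and 30 of the 42 cells came from 1 library. Of the Ace-led cells 95% had Ly6c2 and 100% had Ccr2, and because this pair of genes chose cells, their detection does not bear on the kind of monocyte.

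The other 3 clusters went against the label. One of 14 cells led with Mpo, Ctsg and Prtn3, granule enzymes of myeloid progenitors, and with histone genes such as Hist1h2ae and Hist1h1b. It is called Mpo-led here, as its cells were of mixed kind: all 14 had a UMI of the proliferation gene Mki67, 10 had Prtn3, 5 had Mpo and 4 had Elane, and 3 gave 5.52%, 3.55% and 4.05% of their UMIs to MHC class II genes. A cluster of 14 cells led with endothelial genes, with Cdh5 in 100% of its cells, and one of 12 cells led with genes of dental mesenchyme and had a median of 32047 UMIs per cell, against 8805, 9962, 9016 and 11197 over all selected cells of WT1, WT2, KO1 and KO2. These 40 cells held 48.5% of all UMIs of the 174 cells, and the endothelial and mesenchyme clusters alone (26 cells) held 35.3%. The endothelial cluster also carried leukocyte genes outside the rule. Lyz2 (4909 CPM), Fcer1g and Tyrobp were found in all 14 of its cells and Spi1 in 13. Whether its barcodes each held 1 cell or more was not tested. The mesenchyme collagen Col1a1 was also found in 55% of the Chil3-led cells, at 132 CPM, against 4273 CPM in the mesenchyme-like cluster. Levels below are sums over all 174 cells unless stated, and for most lists the median log2 fold change is also given over the 134 cells left without these 40, where the median of all 4144 genes tested was -0.01.

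The lineage genes separated the clusters in level. H2-Aa, a chain of MHC class II, stood at 9952 CPM in the cDC2-like and 6713 CPM in the cDC1-like cluster, against 508 and 512 CPM in the Chil3-led and Ace-led monocytes and 25 CPM in the pDC-like cluster. Lyz2, the lysozyme of monocytes and macrophages, stood at 28339 CPM in the Chil3-led and 20260 CPM in the Ace-led cluster. Irf8 stood at 1598 CPM in the cDC1-like, 2023 CPM in the pDC-like and 23 CPM in the cDC2-like cluster. Csf1r, the receptor for the monocyte growth factor, was at 0 in the cDC1-like and pDC-like clusters. These genes took part in the clustering, and no test was made of them.

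**Figure D1:**
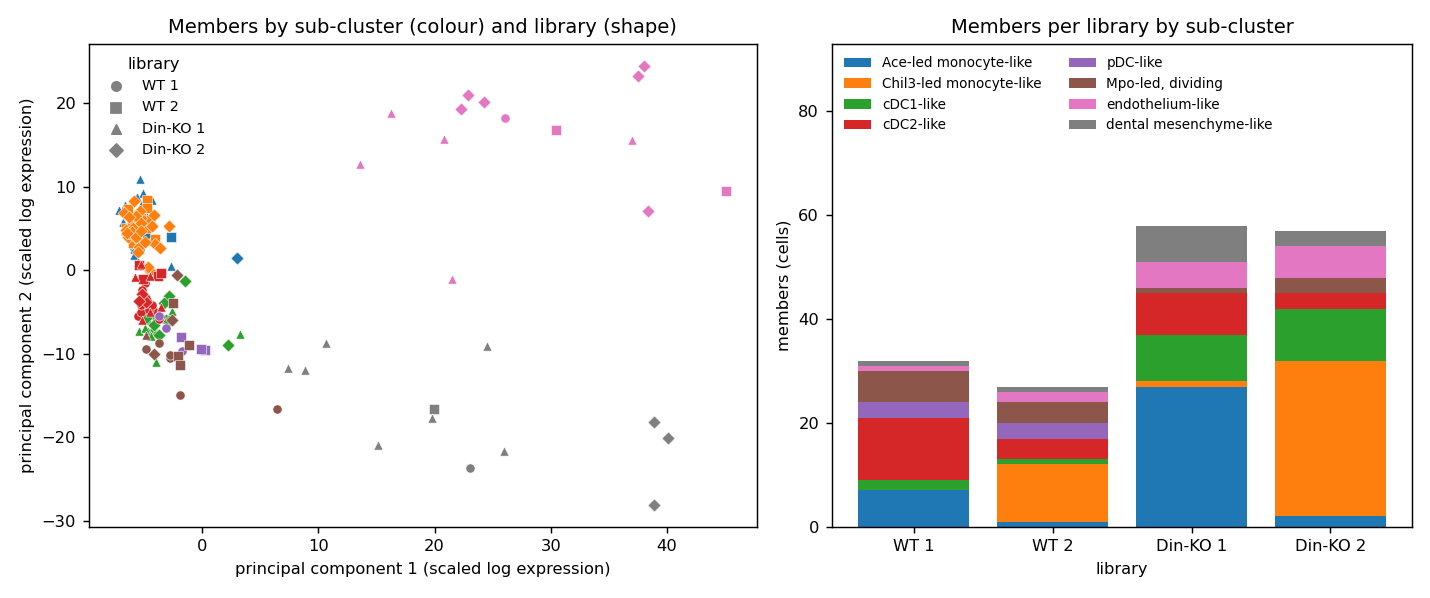
Left, the 174 selected cells on principal components 1 and 2 of scaled log expression, coloured by cluster and shaped by library. Right, the number of cells per library in each cluster; the Ace-led monocytes came mostly from replicate 1 libraries (34 of 37 cells), the Chil3-led monocytes from replicate 2 libraries (41 of 42), and all 6 pDC-like cells from WT.

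The share of monocytes and dendritic cells among all cells did not separate the groups. It was 0.820% (95% exact binomial interval 0.561 to 1.16) in WT1, 1.73% (1.14 to 2.51) in WT2, 1.27% (0.964 to 1.64) in KO1 and 4.48% (3.41 to 5.77) in KO2. KO2 was high and KO1 lay between the WT libraries. The mean was 1.28 ± 0.644% in WT and 2.87 ± 2.27% in Din-KO (SD, n = 2), a difference of 1.60 percentage points with an exact two-sided permutation p of 0.667, where 2 libraries against 2 cannot go below 0.333. Without KO2 the difference was -0.0076 points. Among cells with Ptprc the shares were 4.69%, 7.03%, 6.10% and 17.4% in the same order, and on cells thinned to 2000 UMIs they were 0.335%, 1.03%, 0.725% and 2.07%. All intervals here cover counting error only.

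Within the selected cells the makeup differed from library to library. The cDC1-like cells numbered 2 of 32 and 1 of 27 in WT1 and WT2, and 9 of 58 (15.5%, interval 7.35 to 27.4) and 10 of 57 (17.5%, 8.75 to 29.9) in KO1 and KO2. The cDC2-like cells numbered 12 (37.5%), 4 (14.8%), 8 (13.8%) and 3 (5.26%) in the same order, and the Mpo-led cells 6 (18.8%), 4 (14.8%), 1 (1.72%) and 3 (5.26%). The endothelium-like cells numbered 1 (3.12%), 2 (7.41%), 5 (8.62%) and 6 (10.5%). The mesenchyme-like cells numbered 1 (3.12%), 1 (3.70%), 7 (12.1%) and 3 (5.26%). In this clustering both Din-KO libraries had more cDC1-like, endothelium-like and mesenchyme-like cells as a share of their own selected cells. They had smaller shares of cDC2-like and Mpo-led cells. Several of these shares lay close together, with wide exact binomial intervals. For cDC2-like cells the intervals were 4.19 to 33.7% in WT2 and 6.15 to 25.4% in KO1. For endothelium-like cells they were 0.910 to 24.3% and 2.86 to 19.0%. The pDC-like cells were 3 of 32 and 3 of 27 in WT and 0 of 58 and 0 of 57 in Din-KO. A count of 0, taken as up to 3 cells of the total, allows a share of up to 5.17% and 5.26%, and the exact binomial intervals reach 6.16% and 6.27%. With genes centred within each library no pDC-like cluster was found, and a cDC1-like cluster of 30 cells held 6 (18.8%), 4 (14.8%), 10 (17.2%) and 10 (17.5%). That cluster took in all 6 pDC-like cells, all of them from WT, and in it the libraries of the 2 groups overlapped in share. No test was made of cluster sizes, since they rest on genes that may themselves differ between the groups.

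Without such centring the division of the monocytes followed the replicate number more than the genotype. The Ace-led cluster held 7 cells of WT1, 1 of WT2, 27 of KO1 and 2 of KO2, and the Chil3-led cluster held 0, 11, 1 and 30. Both clusters together were 7 of 32, 12 of 27, 28 of 58 and 32 of 57 cells. Each of them is mostly of 1 Din-KO library and may be that library rather than a kind of monocyte. With genes centred within each library the monocytes divided otherwise. A cluster led by S1pr5, Tppp3 and Ace held 5, 5, 9 and 3 cells, one led by Chil3 held 1, 6, 6 and 9, and one led by Apoe, Fcgr1 and Msr1 held 1 (3.12%), 1 (3.70%), 13 (22.4%) and 18 (31.6%), a larger share in both Din-KO libraries.

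Levels of genes that led the Chil3-led cluster divided the same way, which restates the clustering and is given as a description. Chil3, a chitinase-like secreted protein, stood at 25.1 CPM in WT1, 406 in WT2, 75.0 in KO1 and 410 in KO2. Cd14, the co-receptor for bacterial lipopolysaccharide, stood at 13.97, 307, 66.5 and 252 CPM, and the neutrophil chemokine Cxcl2 at 75.4, 535, 142 and 604 CPM. The immediate early gene Fos, which rises when tissue is digested warm, stood at 363, 1300, 526 and 1992 CPM. In all 4 genes both replicate 2 libraries were above both replicate 1 libraries, while WT and Din-KO overlapped. Of 18 tested genes on the dissociation stress list, 15 had a positive fold change, with a median log2 fold change of 0.29, and without the 40 cells 9 of 18 had one, with a median of -0.05. What part digestion had in the division of the monocytes was not tested.

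Din-KO and WT were compared on UMIs summed over the selected cells of each library, with edgeR's quasi-likelihood test on 7161 genes. In such sums fewer cells of a type and less RNA per cell cannot be told apart. After Benjamini-Hochberg adjustment at 0.05, 1 gene was lower in Din-KO (0.014%) and 0 were higher (0%). At an unadjusted p under 0.05, 170 genes were lower (2.37%) and 260 were higher (3.63%), and DESeq2 called 9 lower and 5 higher. Both Din-KO libraries stood above both of WT for 1276 genes (17.8% of those tested) and below both for 1216 (17%), and counts of this kind for a gene list are read against these shares. The median log2 fold change of all genes was 0.004.

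The 1 gene that passed was Mpo, the myeloperoxidase of granulocyte progenitors. It stood at 411 CPM in WT1, 350 in WT2, 0 in KO1 and 2.21 in KO2, a log2 fold change of -8.07 ± 0.65 (SE, adjusted p = 0.0401 by edgeR's quasi-likelihood test), which with so few UMIs in Din-KO depends on the prior count and is no bound. Mpo was detected in 2 cells of each WT library, and 1 cell held 119 of the UMIs of WT1 and 1 cell 150 of those of WT2. Over all libraries 300 of its 301 UMIs lay in 5 cells of the Mpo-led cluster. The call rests on these cells, and with the 40 cells of the 3 other clusters left out no gene passed in edgeR among 4144 tested (0 lower, 0 higher, against 69 and 80 at an unadjusted p under 0.05).

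Other enzymes of the same granules had the same order without passing. Prtn3, proteinase 3, stood at 1218, 436, 5.66 and 85.1 CPM in WT1, WT2, KO1 and KO2 (log2 fold change -4.22 ± 1.06 SE, adjusted p = 0.574 by edgeR). Ctsg, cathepsin G, stood at 483, 99.1, 0 and 14.4 CPM (adjusted p = 0.508 by edgeR). Of 9 tested genes of the myeloid progenitor list, 4 were below both WT libraries in both Din-KO libraries (17% of all genes), 1 of them called. The median was -0.51 over all cells and -0.02 over the 5 genes tested without the 40 cells, where Prtn3 stood at 5.21, 56.2, 7.81 and 49.5 CPM.

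Proliferation genes stood lower in both Din-KO libraries. Mki67 stood at 151 and 254 CPM in WT1 and WT2 and at 53.8 and 39.8 CPM in KO1 and KO2 (log2 fold change -2.10), and Top2a, the topoisomerase that untangles replicated DNA, at 282, 201, 109 and 55.2 CPM (-1.58 ± 0.44 SE). Hmgb2, a chromatin protein of dividing cells, stood at 1665, 1164, 828 and 663 CPM. The groups did not overlap in these genes, and none passed the test. Single cells held much of Mki67: 31 of the 54 UMIs of WT1 and 52 of the 110 of WT2 lay in 1 cell each, and 26 of the 38 of KO1 lay in 1 endothelium-like cell. All 19 tested genes of the list had a negative fold change, with a median of -1.18, and 16 of the 19 were below both WT libraries in both Din-KO libraries (17% of all genes).

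Of the UMIs of Mki67, 71.0% lay in the Mpo-led cluster, whose cells stand apart by division itself, so sums without it do not test the direction. Outside that cluster cells with Mki67 numbered 0 of 26 in WT1, 5 of 23 (21.7%) in WT2, 5 of 57 (8.77%) in KO1 and 8 of 54 (14.8%) in KO2, and the groups overlapped. Cells with a UMI of 5 or more genes of the list, a count that moves with depth and was not thinned, numbered 11 of 32 (34.4%), 8 of 27 (29.6%), 17 of 58 (29.3%) and 17 of 57 (29.8%) over all selected cells. Outside the Mpo-led cluster they numbered 5 (19.2%), 4 (17.4%), 16 (28.1%) and 14 (25.9%), a larger share in both Din-KO libraries. Of the list only 5 genes could be tested without the 40 cells, with a median of 1.35. All 5 stood above both WT libraries in both Din-KO libraries (15% of the genes tested there). A gene can pass the count filter through the group where it is high, so no direction is read from these 5.

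Type I interferon response genes stood higher in both Din-KO libraries than in both WT libraries for most of the tested genes of their list. Ifi27l2a, an interferon-induced mitochondrial protein, stood at 629 CPM in WT1, 390 in WT2, 2822 in KO1 and 1494 in KO2 (log2 fold change 2.05 ± 0.45 SE). Irf7, the factor that amplifies interferon production, stood at 41.9, 25.4, 323 and 125 CPM (2.73 ± 0.59 SE), and Slfn5, a schlafen family protein, at 101, 96.8, 188 and 242 CPM (1.11 ± 0.32 SE). The groups did not overlap in any of these 3 genes, and none passed after adjustment.

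Across the interferon list 47 genes were named, 45 were in the files and 36 had counts enough to be tested. Of the 36, 34 had a positive fold change, with a median of 1.25, and 0 were called by edgeR. The median was positive but lower in cells with at least 3 rule genes, as given with the other settings below. In the 25, 20, 27 and 20 cells of the 4 libraries that had 3 or more UMIs of Xist and none from the Y chromosome, the median was 1.19 over 22 tested genes. Both Din-KO libraries stood above both of WT for 25 of the 36 (17.8% of all genes), and below both for 0 (17%). Genes can pass the count filter through the group where they are high, so the 36 do not stand for all 45 in the files. The median was 1.31 between the replicate 1 libraries and 1.05 between the replicate 2 libraries. Oasl2 and Isg15, picked after their values were seen, stood at 2.79 and 16.8 CPM in WT1, at 9.22 and 57.6 CPM in WT2, at 76.4 and 147 CPM in KO1 and at 42.0 and 70.7 CPM in KO2. The interferon-inducible GTPases, which act on the vacuoles of intracellular parasites, had 5 tested genes of 16. All 5 were higher in KO1 and KO2 than in either WT library (17.8% of all genes), with a median of 1.75 (2.08 over the 2 genes tested without the 40 cells). A gene high in Din-KO alone can pass the count filter, so these 5 do not stand for the family. Ifi47 of this family stood at 11.2, 18.4, 66.5 and 38.7 CPM.

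Bst2, the surface protein that tethers budding viruses, was 1 of the 2 tested genes of the interferon list with a negative fold change. It stood at 422, 302, 364 and 208 CPM in WT1, WT2, KO1 and KO2, with a log2 fold change of -0.36 ± 0.40 (SE), and the groups overlapped. Bst2 is also a constant marker of pDC, and its levels divided by cell class. In monocyte-like cells it stood at 130, 85.8, 555 and 218 CPM in the same order, with both Din-KO libraries higher, and in dendritic-like cells at 508, 1015, 249 and 170 CPM, with both lower. All 6 pDC-like cells were among the dendritic-like cells of WT, and they held 146 of the 727 UMIs of Bst2.

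By class the order of the groups varied from gene to gene. Ifi27l2a in monocyte-like cells stood at 2400, 901, 6182 and 3244 CPM, with both Din-KO libraries higher, and in dendritic-like cells at 619, 861, 1543 and 626 CPM, where the groups overlapped. Irf7 overlapped in monocyte-like cells, at 287, 32.2, 654 and 205 CPM, and was higher in both Din-KO libraries in dendritic-like cells, at 6.51, 35.4, 205 and 242 CPM. The median cell gave 0.196% of its UMIs to the list in WT1, 0.224% in WT2, 0.478% in KO1 and 0.461% in KO2. Within monocyte-like cells these medians were 0.472%, 0.202%, 1.40% and 0.526%, and within dendritic-like cells 0.149%, 0.366%, 0.267% and 0.207%. The monocyte medians kept the order of the groups, and the dendritic medians overlapped, in a class that held cDC1-like, cDC2-like and pDC-like cells in different shares from library to library. Whether the effect itself differed between the 2 classes was not tested. Without the 40 cells the list's median log2 fold change was 1.58 over 27 genes, with Ifi27l2a at 975, 882, 3999 and 2260 CPM and Irf7 at 62.5, 33.7, 442 and 219 CPM, and in dendritic-like cells alone it was 0.66. Ifnar2, a chain of the interferon receptor, stood the other way at 210, 212, 143 and 158 CPM, with both Din-KO libraries lower and no call, and at 198, 270, 161 and 206 CPM without the 40 cells, where the groups overlapped.

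**Figure D2:**
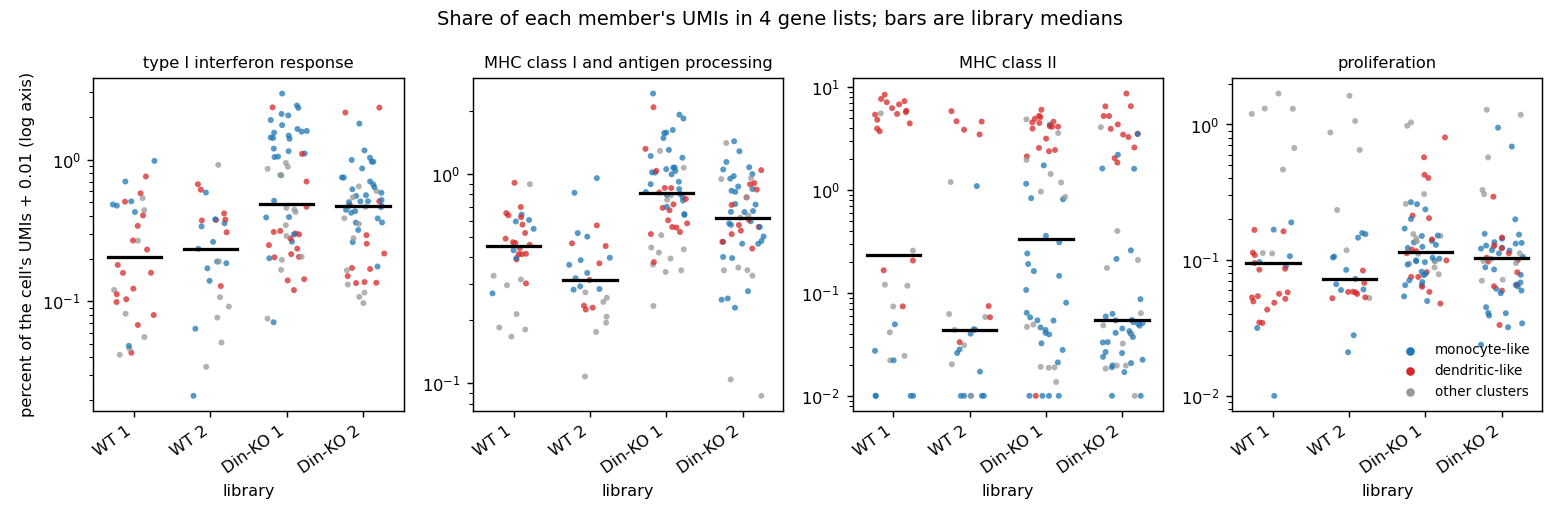
Percent of each selected cell's UMIs (plus 0.01, log axis) in 4 gene lists, by library; a point is a cell, blue for monocyte-like, red for dendritic-like and grey for other clusters, and black bars are library medians. The interferon medians were 0.196% and 0.224% in WT and 0.478% and 0.461% in Din-KO, whereas the MHC class II medians divided by replicate number.

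Promoters of Isg15 and Bst2, from the interferon list, and of B2m, from the MHC class I list, are shown as examples that hold a motif. Not all genes of these lists have it, as given below. The motif of GAAA, 2 bases of any kind (NN) and GAAA again, the core of the element bound by interferon-activated factors, was searched on both strands from 250 bases before to 50 bases after each gene's start in RefSeq (GRCm38.p6), and capitals mark it. Matches can overlap, and 3 of them do so in Isg15, the ubiquitin-like antiviral protein, at chr4:156200769-156201068 on the minus strand. B2m, the light chain of MHC class I, has 1 match at chr2:122147437-122147736 on the plus strand, and Bst2 has 2 overlapping ones at chr8:71537423-71537722 on the minus strand. Each line runs 5′ to 3′ on the gene's own strand.
Isg15: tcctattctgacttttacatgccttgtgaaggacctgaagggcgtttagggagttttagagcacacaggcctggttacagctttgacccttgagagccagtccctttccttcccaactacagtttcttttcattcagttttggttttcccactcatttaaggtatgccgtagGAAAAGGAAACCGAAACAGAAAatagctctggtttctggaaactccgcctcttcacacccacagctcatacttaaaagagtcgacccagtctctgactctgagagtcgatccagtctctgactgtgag
B2m: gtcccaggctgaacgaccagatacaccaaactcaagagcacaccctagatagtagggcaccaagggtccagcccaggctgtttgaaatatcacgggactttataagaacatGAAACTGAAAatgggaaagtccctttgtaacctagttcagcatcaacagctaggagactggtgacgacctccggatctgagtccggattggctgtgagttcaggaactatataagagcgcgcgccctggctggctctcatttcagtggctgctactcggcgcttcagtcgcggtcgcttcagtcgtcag
Bst2: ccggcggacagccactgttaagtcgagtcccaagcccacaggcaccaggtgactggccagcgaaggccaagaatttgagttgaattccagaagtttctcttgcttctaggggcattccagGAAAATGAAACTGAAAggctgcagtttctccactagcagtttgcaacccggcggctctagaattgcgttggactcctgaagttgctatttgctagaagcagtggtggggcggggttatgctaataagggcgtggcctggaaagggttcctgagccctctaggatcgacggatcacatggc

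The motif was present in 19 of the 36 interferon genes with a promoter window (52.8%), against 3.44% of all 32851 windows and 4.36% of the 5740 symbols tested here. It was present in 5 of 16 windows of the MHC class I list (31.2%), in 9 of 10 of the interferon-inducible GTPases (90.0%), in 0 of 8 of the MHC class II list and in 0 of 17 of the proliferation list. Irf7, Oasl2 and H2-K1 had no match, which says only that these letters were not in the window. A match is a description of the sequence: Bst2 and Isg15 both have it and differed in their order between the groups.

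MHC class I genes, which present peptides from inside the cell, also stood mostly higher in Din-KO. H2-K1, a heavy chain, stood at 327 CPM in WT1, 180 in WT2, 975 in KO1 and 791 in KO2 (log2 fold change 1.77 ± 0.41 SE). B2m stood at 592, 507, 1712 and 1261 CPM (1.42 ± 0.32 SE) and H2-D1, the other classical heavy chain, at 1028, 717, 1861 and 1398 CPM (0.87 ± 0.35 SE). The groups did not overlap, and none of the 3 passed after adjustment. Psmb8, a subunit of the immunoproteasome that cuts the peptides, stood at 567, 217, 611 and 350 CPM, and there the groups did overlap.

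Of the 16 tested genes of the MHC class I list, 15 had a positive fold change, with a median of 0.66, and 9 were above both WT libraries in both Din-KO libraries (17.8% of all genes), while 0 were called. The median was 1.24 without WT1 and 0.40 without WT2, and 0.035 over the 12 genes tested in cells with at least 3 rule genes, where 6 of the 12 were negative. H2-Q7, a nonclassical heavy chain, stood at 5.59, 2.31, 91.98 and 46.4 CPM (4.10, adjusted p = 0.508 by edgeR). The paper counted only confidently mapped reads. Reads shared by near-identical H2 genes may therefore be lost, so the level of any one of these genes is uncertain. Without the 40 cells 13 of 15 tested genes had a positive fold change, with a median of 0.57, and B2m stood at 824, 758, 2321 and 1484 CPM. The order of H2-K1 held in each class: 209, 332, 1455 and 867 CPM in monocyte-like cells, 593, 271, 857 and 796 CPM in dendritic-like cells and 108, 93.8, 738 and 735 CPM in the other clusters. H2-D1 overlapped in dendritic-like cells, at 1602, 1404, 1742 and 1477 CPM. It kept the order in monocyte-like cells, at 1408, 1512, 2894 and 2229 CPM, and in the other clusters. The makeup of those other clusters differed between the groups. In WT1, WT2, KO1 and KO2 they held 6, 4, 1 and 3 Mpo-led cells and 1, 2, 5 and 6 endothelium-like cells. Mesenchyme-like cells numbered 1, 1, 7 and 3 there. The part of this makeup in the order of H2-K1 and H2-D1 was not tested.

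MHC class II genes, in contrast, overlapped between the groups over all selected cells. H2-Aa stood at 4108 CPM in WT1, 1671 in WT2, 2802 in KO1 and 1977 in KO2. Cd74, the invariant chain that loads with it, stood at 9048, 3379, 6275 and 4000 CPM, and Ciita, the master regulator of the class II genes, at 89.4, 39.2, 89.2 and 68.5 CPM. The Din-KO libraries lay between the WT libraries. Of the 10 tested genes, 7 had a negative fold change, and the median of the 10 was -0.33. Of the 10, 0 were above both WT libraries in both Din-KO libraries (17.8% of all genes) and 0 below both (17%). The median was -0.71 between the replicate 1 and 0.79 between the replicate 2 libraries. The order differed between the classes. Within dendritic-like cells H2-Aa stood at 8957, 7528, 6880 and 7517 CPM, with both Din-KO libraries lower but KO2 close to WT2, and Cd74 at 19783, 14914, 14777 and 15066 CPM, where the groups overlapped. The makeup of this class differed between the libraries: WT1 and WT2 gave it 12 and 4 cDC2-like, 2 and 1 cDC1-like and 3 and 3 pDC-like cells, and KO1 and KO2 gave it 8 and 3 cDC2-like, 9 and 10 cDC1-like and no pDC-like cells, clusters whose H2-Aa levels differed as given above. Within monocyte-like cells H2-Aa stood at 0, 236, 580 and 612 CPM and Cd74 at 0, 590, 2098 and 1674 CPM, with both Din-KO libraries higher in both genes. The WT values there came from 1 cell of the 19. In KO1 and KO2 those of H2-Aa came from 9 of 28 and 4 of 32 cells and those of Cd74 from 17 and 13, so a few cells set the level of the class. Without the 40 cells the list's median was -0.60 over 10 genes, and H2-Aa stood at 7167, 3707, 3544 and 3208 CPM.

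**Figure D3:**
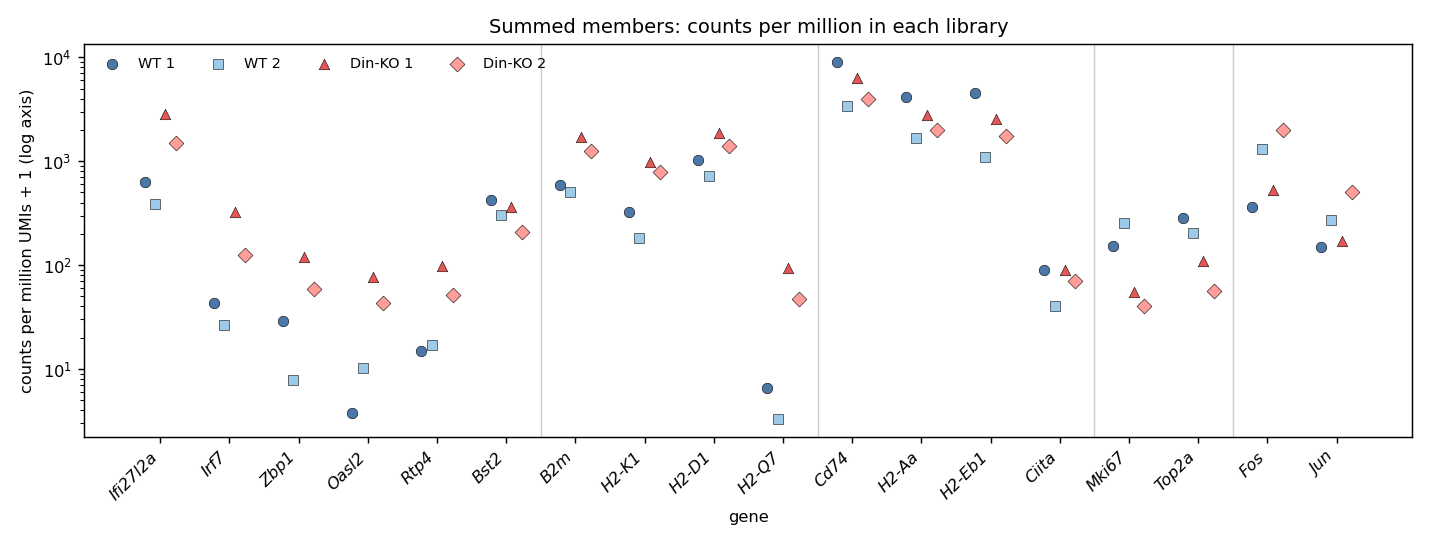
CPM plus 1 (log axis) of 18 genes in the summed selected cells of each of the 4 libraries, grouped as interferon, MHC class I, MHC class II, proliferation and immediate early genes. Blue points (WT) lay below red points (Din-KO) for Ifi27l2a, Irf7, H2-K1 and B2m, above them for Mki67 and Top2a, and among them for Bst2, Cd74, H2-Aa and Fos.

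Genes of cDC1 stood mostly higher in both Din-KO libraries. Xcr1, the chemokine receptor of cDC1, stood at 13.97, 9.22, 52.4 and 46.4 CPM in WT1, WT2, KO1 and KO2 (log2 fold change 2.08 ± 0.48 SE), and Naaa, a lipid amidase enriched in cDC1, at 151, 115, 290 and 343 CPM (1.23 ± 0.33 SE). Leaving out Clec9a, all 10 tested genes of the cDC1 list had a positive fold change, with a median of 1.36 (1.14 without the 40 cells), 8 were above both WT libraries in both Din-KO libraries (17.8% of all genes), and 0 were called. Genes can pass the count filter through the group where they are high, so the 10 do not stand for all genes of the list. Clec9a, which chose cells, stood at 55.9, 6.92, 52.4 and 39.8 CPM. On the cDC2 list without Cd209a 6 of 9 had a negative fold change, with a median of -0.60 (-0.64 without the 40 cells), and 3 were below both WT libraries (17% of all genes). Mgl2, a C-type lectin of cDC2, stood at 411, 120, 90.6 and 32.0 CPM, and Cd209a, which chose cells, at 422, 148, 144 and 68.5 CPM.

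Several genes of pDC were near 0 in both Din-KO libraries. Siglech, which chose cells and is given with no test, stood at 95.01 CPM in WT1, 115 in WT2, 0 in KO1 and 2.21 in KO2. Ccr9, the gut-homing receptor that pDC share, stood at 36.3, 23.1, 1.42 and 1.11 CPM, and Atp1b1, a sodium pump subunit, at 92.2, 41.5, 4.25 and 2.21 CPM (-4.35 ± 0.71 SE, adjusted p = 0.508 by edgeR). Of their UMIs, 76.0% and 62.5% lay in the 6 pDC-like cells. Tcf4, the factor that specifies pDC, was spread more widely and stood at 196, 256, 164 and 181 CPM. Without Siglech, 8 of the 10 tested pDC genes had a negative fold change, with a median of -0.41, and 5 were below both WT libraries (17% of all genes). Without the 40 cells the median was -1.75 over 9 genes, and Tcf4 stood at 182, 354, 70.3 and 88.8 CPM. A gene can pass the count filter through WT alone, where all 6 pDC-like cells lay. The tested genes therefore do not stand for the 17 listed.

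Among the genes with the smallest p in the higher direction, most belonged to tissue cells rather than to leukocytes. Ccn2, a matrix-bound growth factor, stood at 19.6, 25.4, 139 and 242 CPM (3.07 ± 0.43 SE, adjusted p = 0.452 by edgeR), and Wif1, a Wnt antagonist of dental mesenchyme, at 8.38, 9.22, 77.8 and 202 CPM. Of their UMIs, 99.7% and 97.1% lay in the endothelium-like and mesenchyme-like clusters. Npnt, Meg3, Bgn and Crip2 were alike in this, with 92.3%, 86.8%, 95.4% and 97.1%. On the endothelium list all 6 tested genes had a positive fold change, with a median of 0.66. Of them 2 were above both WT libraries in both Din-KO libraries (17.8% of all genes). All 12 tested genes of the dental mesenchyme list had a positive fold change, with a median of 1.31, and 5 were above both WT libraries in both Din-KO libraries (17.8% of all genes). Of its genes 3 could be tested without the 40 cells, with a median of -1.14. The list's summed level was 1635, 2132, 3194 and 11160 CPM, with Sparc as its most abundant gene. It moved with the groups, and its part in the other results was not tested beyond the sums made without those cells.

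The leukocyte genes near the top of that order included Ifi205 and Rab7b. Ifi205, an interferon-inducible DNA sensor of cDC1, stood at 33.5, 36.9, 140 and 117 CPM (1.86), and Rab7b, a GTPase of endosome traffic, at 8.38, 13.8, 65.1 and 57.5 CPM (2.43 ± 0.44 SE). Of their UMIs, 73.8% and 72.0% lay in the cDC1-like cells. Ddx3y, a Y-linked RNA helicase, was also in this group, at 0 in both WT libraries and at 31.1 and 27.6 CPM in KO1 and KO2. In the lower direction the genes after Mpo, the pDC genes and Mki67 were the tubulin Tuba4a, at 112, 89.9, 19.8 and 28.7 CPM, Mzb1, an endoplasmic reticulum chaperone shared by pDC and plasma cells, the histones Hist1h2ab and Hist1h2be, and Gm34680. None of these passed. Without the 40 cells Tuba4a overlapped at 31.3, 28.1, 31.2 and 43.3 CPM, and 93.3% of the UMIs of Hist1h2ab lay in the Mpo-led cluster.

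Lineage factors and general monocyte genes stayed closer together. Ccr2, which chose cells, stood at 528, 851, 519 and 696 CPM and Ly6c2, which also did, at 523, 327, 737 and 443 CPM. Zeb2, which maintains the identity of monocytes and pDC, stood at 316, 579, 328 and 484 CPM, Irf8 at 422, 390, 299 and 467 CPM and Lyz2 at 5415, 9250, 7020 and 10107 CPM, and the groups overlapped in each. Id2, an inhibitor of E proteins that dendritic cells need, was an exception at 224, 300, 504 and 490 CPM (0.93 ± 0.28 SE, adjusted p = 0.692 by edgeR). Of 20 tested lineage factors 10 had a negative and 10 a positive fold change, with a median of 0.004 (-0.30 without the 40 cells). The classical monocyte list without Ccr2 and Ly6c2 had a median of 0.23 over 11 genes (0.001 without the 40 cells).

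The lists not yet described had 0 genes called in each by edgeR. The nonclassical monocyte list had a median of 0.91, with 6 of 7 tested genes positive and 3 above both WT libraries (17.8% of all genes), and 0.64 over 5 genes without the 40 cells. Costimulation and maturation genes had a median of 0.77 over 6 genes (0.26 over 3 without the 40 cells), early hematopoietic progenitor genes 0.56 over 6 and osteoclast genes 0.46 over 4. The p53 targets had a median of 0.53 over 12 tested genes, with 4 above both WT libraries (17.8% of all genes), and of 0.02 over 7 genes without the 40 cells. Cdkn1a, the cell cycle inhibitor, stood at 72.7, 244, 214 and 350 CPM and overlapped. The Fc receptors had a median of 0.31, pattern recognition genes 0.35, chemokine ligands 0.21 and lysosome genes 0.12, and without the 40 cells these were 0.28, 0.26, -0.11 and -0.07. The small GTPases and regulators that the study names had a median of 0.06 over 13 genes that went both ways. Of them 6 were above both WT libraries (17.8% of all genes) and 3 below both (17%). The paper reports most of the named genes as lower in RNA of Din-KO fibroblasts. It names Nras, Rhoa, Cdc42 and Rac1 as potential partners of the DIN protein, and RNA levels measure neither binding nor GTPase activity. Cdc42, which steers the cytoskeleton, stood at 835, 652, 855 and 649 CPM.

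Din itself was barely detected in these cells. It is listed as din, ENSMUSG00000059920, at chr16:64751751-64771161, minus strand of GRCm38, and stood at 5.59, 11.5, 4.25 and 8.84 CPM, from 2, 5, 3 and 8 UMIs in 14 cells. Of its 18 UMIs, 10 (55.6%) lay in the endothelium-like and mesenchyme-like clusters. Din was too low to be tested. The kit reads the 3' end of transcripts, so UMIs outside the deleted exon do not check the knockout.

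The effect of Din-KO was compared with that in C1q-high macrophages of the same 4 libraries (428, 92, 680 and 75 cells), as a difference of differences in 1 fit over 9883 genes. One gene differed after adjustment (0.0101%), 1 with a higher and 0 with a lower difference, and 444 and 330 did so at an unadjusted p under 0.05. The 1 call is given as a count, and nothing about monocytes or dendritic cells is read from it. Without WT2 or without KO2 no gene passed with a higher difference.

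Other genes of the comparison with macrophages did not pass. Bst2 had the smallest p among these, with a difference of -1.92 (adjusted p = 0.131 by edgeR), and stood at 499, 287, 1506 and 744 CPM in macrophages, where both Din-KO libraries were higher. Cdkn1a had a difference of -2.04 (adjusted p = 0.167 by edgeR) and stood at 45.5, 101, 412 and 710 CPM in macrophages. In macrophages the interferon list had a median of 1.18 and the MHC class I list 0.97, against 1.25 and 0.66 in the monocytes and dendritic cells, and the median over the list of the differences was 0.30 and -0.23. For the p53 targets the medians were 1.08 in macrophages and 0.53 over the selected cells, or 0.02 without the 40 cells. Macrophages gave 0 calls in either direction by edgeR among 11316 genes (210 higher, 1.86%, and 44 lower, 0.389%, at an unadjusted p under 0.05, with DESeq2 not run on them), and 11.7% of these stood above both of WT in KO1 and KO2.

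**Figure D4:**
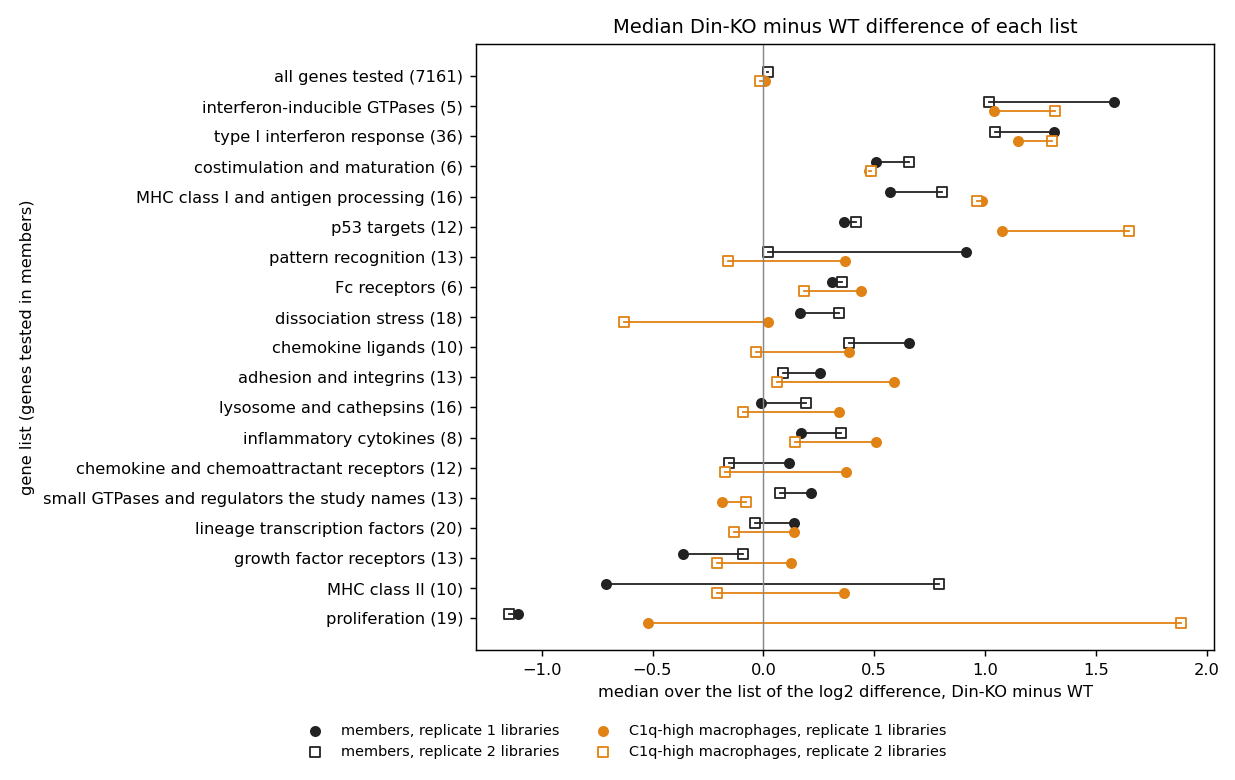
Median log2 difference, Din-KO minus WT, of each gene list between the replicate 1 libraries (circles) and between the replicate 2 libraries (squares), in the selected cells (black) and in C1q-high macrophages (orange), with the number of genes tested in the selected cells; lists are drawn with the genes of the rule that they hold. The interferon list stood at 1.31 and 1.05 in the selected cells and the MHC class II list at -0.71 and 0.79.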

How the data were processed

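Single cells of the incisor's proximal tissue were sequenced with 10x Genomics 3' v3.1 chemistry. The authors aligned reads to mm10/GRCm38 with Cell Ranger 6.0.2, per the file headers, and deposited UMI counts per gene and barcode with no normalization. Total counts were 50423655 and 32198098 in WT replicates 1 and 2 and 54348039 and 33076212 in Din-KO replicates 1 and 2. The selected cells held 357873, 433815, 706649 and 904987 of them. Libraries shared 44 barcode sequences among all 20502 barcodes and 11 among cells past the filters, and 1 selected cell had a barcode found in another library. A further 9 barcodes met the marker rule and failed the filters.

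Members and gene lists were chosen with earlier results of these data known. Cells were clustered with scanpy 1.11.5 (1500 variable genes, 20 principal components, 15 neighbors, Leiden resolution 1, libraries not integrated). Scrublet called 107 of 11310 cells (0.946%) and only 4 of 4575 in Din-KO replicate 1, so doublets were kept and leaving out the top 5% of scores was an alternative. Of the selected cells, 28 were in that top 5%. Free RNA was not removed.

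UMI counts were summed per library and tested in edgeR 4.0.16 (R 4.3.3) by its quasi-likelihood test, after TMM scaling and filterByExpr, for 2 libraries against 2 with no covariate. Benjamini-Hochberg adjusted p-values were called at 0.05. DESeq2 1.42.0 was an alternative. The fits were tested on simulated data. Nothing states that the libraries came from separate animals, so p-values measure the spread between libraries only.

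Named genes were the rule genes, Din, the 10 genes with the smallest p in each direction, the 4 most abundant tested genes of each list, sex-linked genes, the leading genes of clusters and the 5 with the smallest p in each direction in the comparison with macrophages. Others were chosen after their values were seen. Sums over dendritic-like clusters, and over these with monocyte-like ones, were added after seeing the data, and so were the cDC1, cDC2, pDC and classical monocyte lists without the genes of the rule. Some gene results are not reported here.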

Additional observations from a re-analysis of the deposited data

How the results depend on the processing

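With no filter on low counts edgeR called 70 genes lower and 225 higher in the monocytes and dendritic cells, and DESeq2 called 9 and 5. Replicate numbers are shared between the groups, but nothing says that they pair libraries. With a replicate block edgeR called 14 lower and 10 higher, and the deviations of the replicate 1 libraries from their group means correlated at 0.332 over 7161 genes. Leaving out 1 library in turn, where the lone library of a group is assumed to vary like the other group, gave 1 to 34 lower and 0 to 131 higher calls, the most (34 and 131) without KO1. Without KO2 it gave 16 and 31, without WT2 4 and 0. There were 0 lower calls in Xist cells with no Y-linked UMIs, where Mpo was tested and did not pass. There were also 0 in 7 selections with fewer cells or genes, in which Mpo was too low to be tested: with at least 3 rule genes, without the top 5% of Scrublet scores, without cells with 5 or more mesenchyme UMIs, on cells thinned to 2000 UMIs, and in the monocyte-like, the dendritic-like and both kinds of cluster.

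The difference from macrophages had 86 lower and 152 higher calls with no filter, and 0 to 5 lower and 0 to 16 higher calls with 1 library left out. The difference in the share of cells ran from -0.0076 (without KO2) to 3.21 points (without KO1).

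The interferon median stayed positive in every setting. It was 1.23 to 1.49 with 1 library left out, 0.80 with at least 3 rule genes, 1.52 with at most 5 S100a8 UMIs, 1.56 without high Scrublet scores, 1.59 without cells with mesenchyme UMIs and 1.65 on thinned cells. It was 1.51 in monocyte-like, 0.66 in dendritic-like and 1.58 in both kinds of cluster. The MHC class I median was 0.40 to 1.24 with 1 library left out, 0.035 with at least 3 rule genes, 0.84 in monocyte-like and 0.87 in dendritic-like clusters.

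Other lists turned. The MHC class II median ran from -0.94 to 0.88 (without WT1) with 1 library left out, and was 2.27 in monocyte-like clusters and 0.22 in Xist cells with no Y-linked UMIs. The stress median ran from -0.38 (without KO2) to 0.91, with -0.15 without WT1, and was 0.10 with at least 3 rule genes, 0.67 in Xist cells, -0.052 in both kinds of cluster and -0.15 in dendritic-like ones. The proliferation median ran from -1.75 to -0.78 with 1 library left out, and turned to 0.81 in monocyte-like, 1.68 in dendritic-like and 1.35 in both kinds of cluster, which leave out the Mpo-led cluster of dividing cells. Genes can pass the count filter there through the group where they are high, and the cause was not tested. The 16 genes followed over the settings kept their direction wherever they could be tested, and Mpo lost its call in 1 of 12 (adjusted p = 0.0509 in Xist cells by edgeR, over a range from 1.1e-35 to that value).

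The 32 and 27 WT cells and 2 libraries a group limit the precision: 1 cell can hold most of a gene's UMIs, as for Mpo.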
